A study of Mus musculus with 20 samples.

Results

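The members described here are 231 mouse genes whose symbol is Zfp followed by a number, together with their promoter upstream transcripts (PROMPTs). They were chosen as GENCODE release M21 protein-coding genes with such a symbol and a mean of 100 or more gene counts over the 4 wild-type libraries. Of 394 annotated Zfp genes, 231 met this rule and 163 did not, 56 of which had no wild-type count. The whole gene table listed 55471 features. Just outside the threshold stood Zfp952 with a mean of 98.00 counts, Zfp820 with 99.00 and Zfp213 with 99.50. Just inside stood Zfp661 with 100.50, Zfp235 with 103.00 and Zfp39 with 110.75. The wild-type gene counts that chose the members are given below as a description only.

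SIMS cells, an epithelial line from mouse salivary gland, were grown in the same serum-containing medium and sequenced as total RNA in 20 libraries. These formed 5 groups of 4: wild type with no edit named in the labels, Btbd7 KO, which served as the negative control, and 3 Zcchc8 KO clones, called clones 1, 2 and 3. Knockouts were made with CRISPR/Cas9. Each Zcchc8 KO group came from a single clone, and the labels do not say whether the Btbd7 KO cells were a clone or a pool. They also do not say whether libraries of a group came from separate cultures, so the p-values measure the spread between these libraries, which may be technical.

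Most Zfp genes encode C2H2 zinc finger proteins, in which arrays of zinc-binding fingers contact DNA. A large class joins the fingers to a KRAB domain, which recruits the corepressor TRIM28 and, through it, heterochromatin factors that silence transposable elements and other targets. PROMPTs are short, unstable transcripts made upstream of, and mostly antisense to, active promoters. ZCCHC8 is a scaffold subunit of NEXT, the nuclear exosome targeting complex, and NEXT hands such transcripts to the RNA exosome for decay.

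Among the 231 proteins, as translated from GENCODE, 116 held both a KRAB-like match and C2H2 finger matches. Another 85 held 3 or more C2H2 matches without a KRAB match, and 27 held fewer than 3 C2H2 matches. The C2H2 pattern allowed a single cysteine spacing, so fingers of other spacing were missed and these counts may be too low. The other 3, Zfp36, Zfp36l1 and Zfp36l2, held CCCH fingers, which bind AU-rich elements of messenger RNAs and promote their decay. The number of matched C2H2 fingers had a median of 10 and reached 33 in Zfp462. The members were clustered in the genome, with 51 on chromosome 7, 31 on chromosome 17 and 22 on chromosome 13, and 122 had another member within 250 kb. Reads of near-identical paralogs in these clusters could be split between them by the counting, which is not described.

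Gene counts per library ran from 6833258 to 17771804, and PROMPT counts from 1569548 to 3966608 in the 19 libraries of that table, which does not hold wild-type replicate 1. That library stood apart in the gene table, with 14245 genes detected against 17442 to 20889 in the others. Levels are given as CPM, counts scaled to a fixed library total by the TMM-scaled gene counts. Btbd7 was at 95.8 to 103 CPM in Btbd7 KO and 185 to 218 CPM elsewhere. Zcchc8 was at 61.6 to 68.1 CPM in wild type, 57.5 to 65.5 CPM in Btbd7 KO, 55.1 to 65.6 CPM in clone 1, 21.9 to 24.9 CPM in clone 2 and 50.4 to 60.6 CPM in clone 3. A count over the whole gene does not show whether an edit is present. Epithelial and ductal marker genes summed to 3105 to 5048 CPM in every library, and 1 marker of each other list stayed under 1 CPM throughout, Ptprc of 2 leukocyte, Cdh5 of 2 endothelial, Pdgfrb of 3 fibroblast, Amy1 of 3 acinar and Acta2 of 2 myoepithelial genes. Other markers were present and differed between groups. The acinar list, mostly Aqp5, summed to 167.4 to 187.9 CPM in wild type, 109.1 to 115.0 in Btbd7 KO, 136.0 to 164.2 in clone 1, 126.5 to 155.1 in clone 2 and 114.7 to 123.9 in clone 3. The fibroblast list, mostly Col1a1, summed to 9.3 to 14.9, 16.1 to 25.6, 9.89 to 13.4, 24.1 to 28.1 and 21.1 to 24.98 CPM in the same order, and the leukocyte list, mostly Cd68, to 4.52 to 6.19, 5.44 to 6.59, 8.07 to 12.99, 9.26 to 11.0 and 4.09 to 6.63 CPM. The endothelial and myoepithelial lists reached at most 1.02 and 1.45 CPM. Their part in the results was not tested. In such bulk samples fewer cells of a type and less RNA per cell cannot be told apart.

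The promoters of 5 members with large or lower PROMPT values follow, because the PROMPT rows describe the region upstream of these starts. Zfp119a and Zfp36l1 are added, the former as a close copy of the Zfp959 promoter and the latter as the PROMPT with the lowest p for a difference among clones. Each runs from 250 bases before to 50 after the start, 5′ to 3′ on the gene's strand, from RefSeq on GRCm38.p6, and capitals mark the motifs defined after the sequences.
Zfp959, chr17:55891843-55892142, plus strand: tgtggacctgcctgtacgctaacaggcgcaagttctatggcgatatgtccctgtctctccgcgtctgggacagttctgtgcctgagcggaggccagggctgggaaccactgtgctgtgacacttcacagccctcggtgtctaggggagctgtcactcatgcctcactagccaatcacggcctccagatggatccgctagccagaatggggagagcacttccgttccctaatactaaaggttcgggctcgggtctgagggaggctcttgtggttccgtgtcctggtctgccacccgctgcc
Zfp119a, chr17:55878904-55879203, minus strand: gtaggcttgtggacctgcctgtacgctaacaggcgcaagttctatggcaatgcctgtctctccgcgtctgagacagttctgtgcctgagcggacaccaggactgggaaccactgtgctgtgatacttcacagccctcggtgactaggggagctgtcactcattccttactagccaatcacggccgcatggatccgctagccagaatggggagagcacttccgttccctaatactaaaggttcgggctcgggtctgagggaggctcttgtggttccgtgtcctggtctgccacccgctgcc
Zfp207, chr11:80383029-80383328, plus strand: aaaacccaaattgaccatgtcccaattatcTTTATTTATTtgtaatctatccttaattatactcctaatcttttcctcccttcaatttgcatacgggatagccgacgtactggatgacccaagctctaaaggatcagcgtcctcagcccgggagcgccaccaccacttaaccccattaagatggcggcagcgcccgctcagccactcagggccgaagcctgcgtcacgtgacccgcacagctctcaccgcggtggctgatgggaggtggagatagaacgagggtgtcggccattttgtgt
Zfp655, chr5:145231492-145231791, plus strand: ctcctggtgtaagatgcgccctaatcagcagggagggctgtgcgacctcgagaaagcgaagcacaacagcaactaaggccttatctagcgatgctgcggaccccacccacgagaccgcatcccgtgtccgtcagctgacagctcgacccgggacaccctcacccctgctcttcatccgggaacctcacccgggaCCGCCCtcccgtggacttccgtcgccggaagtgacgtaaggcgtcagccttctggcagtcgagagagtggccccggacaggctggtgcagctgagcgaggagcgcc
Zfp598, chr17:24669437-24669736, plus strand: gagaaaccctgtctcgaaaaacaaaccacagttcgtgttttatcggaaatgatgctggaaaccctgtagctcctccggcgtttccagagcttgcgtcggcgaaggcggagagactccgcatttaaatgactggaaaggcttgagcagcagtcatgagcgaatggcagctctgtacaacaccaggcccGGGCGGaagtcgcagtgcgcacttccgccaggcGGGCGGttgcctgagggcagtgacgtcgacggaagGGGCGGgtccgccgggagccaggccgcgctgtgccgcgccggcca
Zfp513, chr5:31202254-31202553, minus strand: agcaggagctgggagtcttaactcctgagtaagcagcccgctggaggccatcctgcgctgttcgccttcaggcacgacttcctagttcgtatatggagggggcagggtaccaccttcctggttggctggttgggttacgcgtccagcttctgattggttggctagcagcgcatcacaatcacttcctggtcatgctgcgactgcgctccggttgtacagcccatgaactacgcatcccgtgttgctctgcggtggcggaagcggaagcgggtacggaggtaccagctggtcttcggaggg
Zfp36l1, chr12:80112964-80113263, minus strand: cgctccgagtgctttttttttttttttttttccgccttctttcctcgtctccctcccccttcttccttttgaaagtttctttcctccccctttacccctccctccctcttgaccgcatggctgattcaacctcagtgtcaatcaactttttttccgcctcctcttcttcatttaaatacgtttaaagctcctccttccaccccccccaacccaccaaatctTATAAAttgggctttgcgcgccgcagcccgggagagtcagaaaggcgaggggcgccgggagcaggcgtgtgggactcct
The searched motifs were the polyadenylation hexamer AATAAA, the splice donor GGTAAG, the TATA box TATAAA and the GC box GGGCGG, on both strands. AATAAA and TATAAA can overlap in the run TATAAATAAA. Zfp207 held the reverse complement TTTATT at positions -220 and -216 from the start, Zfp598 held GGGCGG at -63, -30 and 6, Zfp655 held its reverse complement CCGCCC at -56, and Zfp36l1 held TATAAA at -29. Zfp959, Zfp119a and Zfp513 held none of the 4 motifs in these 300 bases. Aligned end to end, Zfp959 and Zfp119a shared 284 of 307 positions (92.5%), with a longest common run of 114 bases. The genes lie head to head on chromosome 17, so reads near both starts are uncertain where they fall in identical stretches. RefSeq held promoters for 189 of the 231 members, and 153 of these starts lay within 100 bp of the GENCODE start. Among the 189, 12.2% held AATAAA, 7.94% GGTAAG, 6.88% TATAAA and 50.8% GGGCGG, against 19.6%, 9.67%, 13.6% and 35.7% of all 32851 promoters in the table. Median GC content was 55.3% in members and 52.7% in all, and the median number of CpG dinucleotides was 15 and 7. GGGCGG was present in 50% of the 96 promoters whose PROMPT was higher in the clones and in 47.1% of the 34 whose PROMPT was tested and not higher, and AATAAA in 11.5% and 11.8%.

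PROMPT reads of the Zfp genes summed to more than in either control in all 3 Zcchc8 KO clones, while the summed gene level of the same 231 members stayed between 10432 and 11796 CPM in all 20 libraries. Summed over all 231 members with no filter, PROMPT reads amounted to 468.8 ± 6.96 CPM in wild type (SD, n = 3) and 472.1 ± 4.03 CPM in Btbd7 KO (SD, n = 4). Clones 1, 2 and 3 reached 1144 ± 27.0, 932.2 ± 15.6 and 1023 ± 17.5 CPM (SD, n = 4 each). Every clone library, from 912.9 to 1178 CPM, was above every control library, from 462.5 to 476.3 CPM. The summed gene level was 11068 ± 557 CPM in wild type, 10928 ± 105 CPM in Btbd7 KO, and 10941 ± 118, 10725 ± 215 and 11015 ± 197 CPM in clones 1 to 3 (SD, n = 4 each). The gene sums of the groups overlapped.

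**Figure D1:**
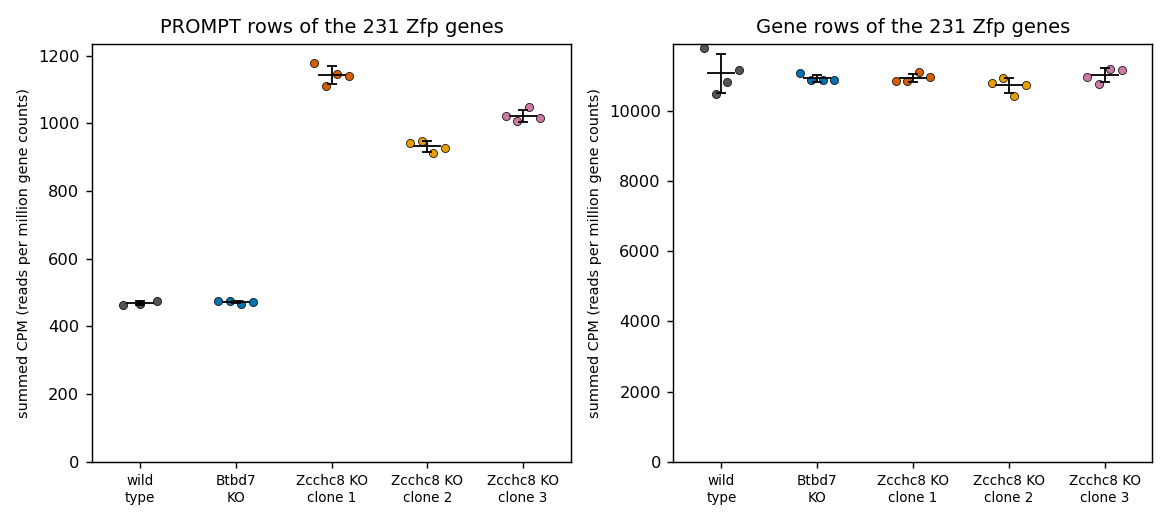
Summed level of the 231 Zfp genes in each library, PROMPT rows on the left and gene rows on the right, in CPM of the gene total; points are libraries, bars the mean and SD (n = 4, or 3 for wild-type PROMPTs). PROMPT sums lay between 462.5 and 476.3 CPM in the 7 control libraries and between 912.9 and 1178 CPM in the 12 clone libraries, whereas gene sums overlapped.

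Of the 231 members, 166 had a PROMPT that passed the filter on low counts, and 65 did not, 8 of which had no PROMPT count in any library. Against wild type, 122 of the 166 were higher in the mean of the clones and 1 was lower at an adjusted p under 0.05 (edgeR quasi-likelihood test, Benjamini-Hochberg adjustment over all 17655 PROMPTs tested). Over all PROMPTs tested, 39.9% were higher and 3.31% lower. Among the 6889 tested PROMPTs of the other protein-coding genes at the same gene count threshold, 66.4% were higher and 1.57% lower, against 73.5% and 0.602% of the members. The median log2 fold change was 1.81 in members, 1.67 in those other protein-coding genes and 0.45 over all PROMPTs tested. The share of members higher was thus above that of all tested PROMPTs. It was also above that of other genes in each range of wild-type gene counts. At 100 to 200 counts it was 73.0% of members against 52.25%, and at 200 to 400 counts 65.1% against 56.85%. At 400 to 800 counts it was 67.6% against 60.6%, with medians of 1.37 and 1.35. From 800 counts it was 85.7% against 74.3%. This difference was not tested. For Zbtb genes, another zinc finger family, 19 of 25 tested were higher with a median of 2.12. Of the Zscan and Zkscan genes 7 of 7 were higher, and of the Klf and Sp genes 9 of 11.

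Many members passed the filter only when the clone libraries were counted, which favours rows that are high in the clones. Of the 166, 79 passed on the control libraries alone. Among these 79, 49 were higher and 1 was lower, with a median log2 fold change of 1.01. The shares of all PROMPTs and of other genes above used the wider filter and are no like background for these 79. No share of other genes under the stricter filter is given. The other 87, which passed only with the clones, included 73 that were higher, a count the filter favours. In 5 members no wild-type library held a PROMPT count. With a bound of 3 counts over the wild-type group, their log2 fold changes were at least 2.84 to 4.29. All of these lie above the median of the 166, 1.81, so the bound could not change that median.

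The rise was present in each clone taken alone. Clone 1 had 117 of 166 higher and 0 lower (all PROMPTs 39.3% and 3.79%), clone 2 had 108 higher and 3 lower (36% and 3.09%) and clone 3 had 114 higher and 0 lower (36.7% and 2.41%). The medians were 1.96, 1.80 and 1.77 on the log2 scale. In all, 98 of 166 members (59.0%) were higher in the mean and in each clone (all PROMPTs 28.9%). The 12 clone libraries were all above the 7 control libraries in 77 of the 231 members (33.3%), counting untested rows too. On the same base this held for 32.0% of the other protein-coding genes at the same threshold. Over all PROMPTs it held for 21.3%, but of tested rows only, which is not a like base for the 33.3%. Of the 77 members, 75 were among those called higher. Against Btbd7 KO, a comparison that shares the clone libraries, 118 members were higher and 2 lower (all PROMPTs 45.6% and 5.77%), with a median of 1.83.

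Btbd7 KO had few calls against wild type in these rows. Higher PROMPTs numbered 2, Zfp410 and Zfp523, and lower PROMPTs 2, Zfp260 and Zfp568, of 166 (all PROMPTs 1.35% and 1.68%), with a median log2 fold change of 0.05. These 4 were named after their values were seen.

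The PROMPT level was also set against the gene level within each library. On the log2 scale, with a pseudocount of 0.5, PROMPT counts over gene counts had a median across the 166 tested members of -5.16 ± 0.09 in wild type (SD, n = 3) and -5.09 ± 0.12 in Btbd7 KO (SD, n = 4). Clones 1, 2 and 3 stood at -3.17 ± 0.08, -3.34 ± 0.11 and -3.25 ± 0.09 (SD, n = 4 each). No clone library overlapped a control library on this ratio. The shift was not particular to the members. In 6889 other protein-coding genes the ratio was -5.94 in wild type and -5.99 in Btbd7 KO. Clones 1 to 3 stood there at -3.82, -4.07 and -4.03, again without overlap. In the 79 members that passed on control libraries alone the ratio was higher in every group and the gap smaller, at -3.23 ± 0.17 in wild type, -3.30 ± 0.13 in Btbd7 KO, and -2.01 ± 0.11, -2.27 ± 0.11 and -2.16 ± 0.13 in clones 1 to 3.

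Zfp397, Zfp959, Zfp207, Zfp655, Zfp598 and Zfp235 had the largest rises among well-counted members with no other annotated gene in the 5 kb upstream. They were chosen by their log2 fold change from a pool of 24. Of these, Zfp655 and Zfp598 passed the low-count filter on control libraries alone, and both were past the test in each clone. Zfp397, Zfp959, Zfp207 and Zfp235 passed only with the clones, as did Zfp36 and Zfp119a below, so their differences were favoured by the filter and are given as values with no test. Zfp207, which encodes the spindle and kinetochore protein BuGZ, was also the member with the highest gene level per kilobase. Its PROMPT was at 0.288, 0.443 and 0.583 CPM in wild type and 0.719, 0.867, 0.616 and 0.762 CPM in Btbd7 KO. It was at 8.66, 8.30, 9.20 and 12 CPM in clone 1, 9.14, 9.28, 7.36 and 8.496 CPM in clone 2, and 8.17, 9.78, 8.43 and 7.74 CPM in clone 3. The clone libraries were high and the controls low, and the fitted log2 fold change over wild type was 4.30 ± 0.28 (SE). The PROMPT of Zfp655 was at 1.154, 0.813 and 1.11 CPM in wild type and 0.659, 0.200, 0.123 and 0.931 CPM in Btbd7 KO. In the clones it was at 16.3, 20.5, 16.5 and 16.1 CPM (clone 1), 16.1, 15.6, 13.3 and 14.3 CPM (clone 2) and 15.99, 13.2, 19.9 and 15.9 CPM (clone 3). No clone library overlapped a control library, and the rise was 3.94 ± 0.22 on the log2 scale (SE, edgeR adjusted p = 1.47e-23).

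Zfp598, a ubiquitin ligase that recognises collided ribosomes, had a PROMPT mean of 0.565 ± 0.207 CPM in wild type (SD, n = 3) and 1.03 ± 0.468 CPM in Btbd7 KO (SD, n = 4). The clone means were 8.48 ± 1.17, 6.41 ± 1.45 and 7.75 ± 0.819 CPM (SD, n = 4 each), with no overlap between clone and control libraries. Zfp397 reached 9.503 ± 1.48, 5.82 ± 0.823 and 7.09 ± 0.726 CPM in clones 1 to 3 from 0.296 ± 0.267 CPM in wild type, 4.60 ± 0.36 higher on the log2 scale (SE). Its wild-type mean rests on 9, 5 and 0 counts, so the size of the fold is loosely fixed. The PROMPT of Zfp959, whose promoter is printed above, went from 0.237 ± 0.144 CPM in wild type to 5.31 ± 1.02, 5.93 ± 1.21 and 6.36 ± 0.846 CPM, and that of its neighbour Zfp119a from 0.423 ± 0.292 CPM to 1.90 ± 0.277, 2.40 ± 0.723 and 2.59 ± 1.36 CPM. The PROMPT of Zfp235 was at 0.374 ± 0.143 CPM in wild type and at 4.41 ± 1.18, 3.26 ± 0.706 and 3.87 ± 1.59 CPM in the clones. Btbd7 KO libraries were within 1.14 CPM for Zfp959 and 0.779 CPM for Zfp235.

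**Figure D2:**
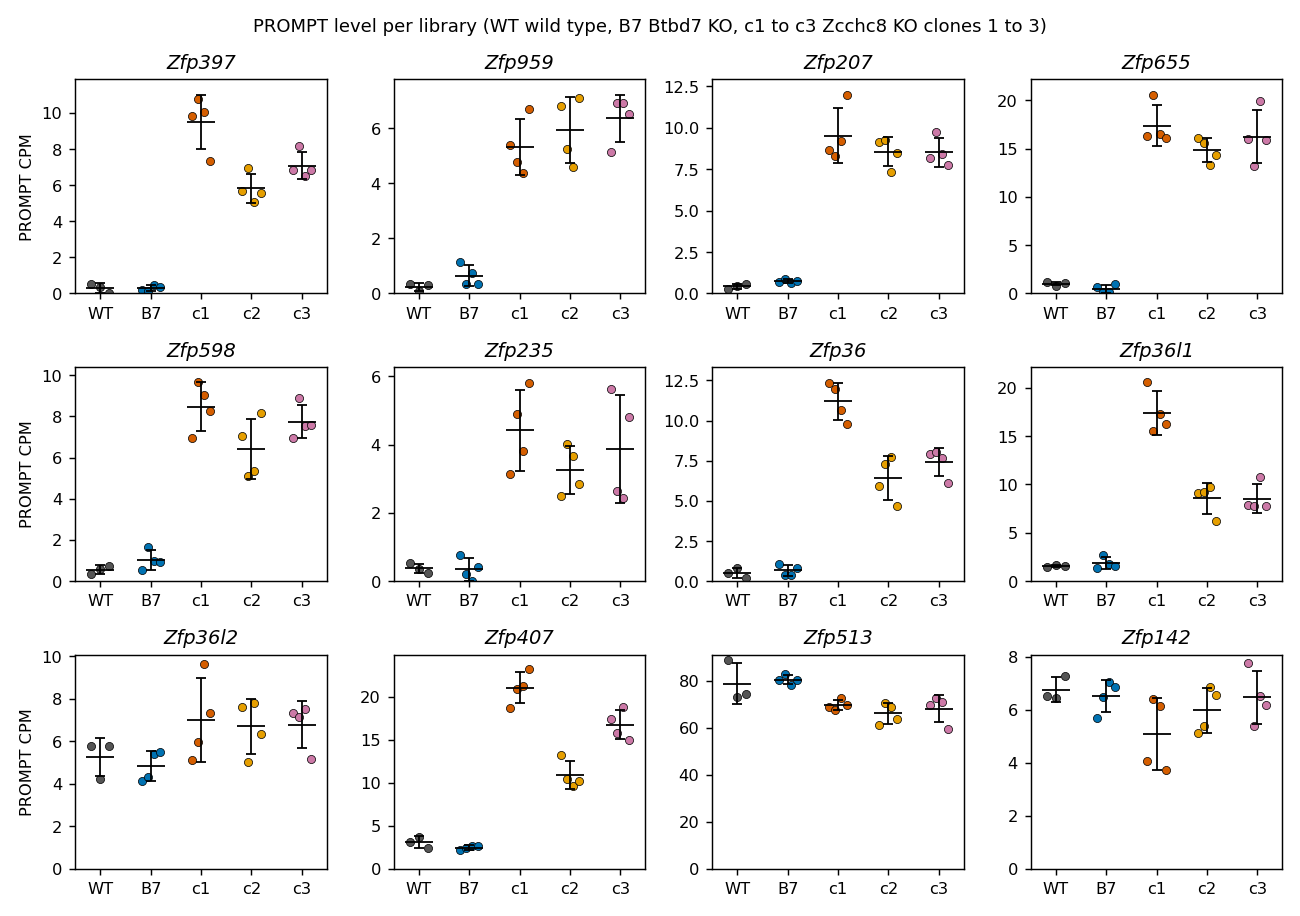
PROMPT level in CPM (each vertical axis from 0) of 12 Zfp genes in every library of wild type (WT, n = 3), Btbd7 KO (B7, n = 4) and Zcchc8 KO clones 1 to 3 (c1 to c3, n = 4 each); points are libraries, bars the mean and SD. Clone libraries of the first 8 panels and of Zfp407 lie above all controls, Zfp36l2, Zfp513 and Zfp142 do not, and Zfp36l1 and Zfp407 are highest in clone 1.

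Of the 3 CCCH genes, 2 had a higher PROMPT. That of Zfp36, which encodes tristetraprolin, was at 0.519, 0.813 and 0.175 CPM in wild type and 1.08, 0.400, 0.370 and 0.847 CPM in Btbd7 KO. It reached 12.3, 11.97, 10.7 and 9.80 CPM in clone 1, 5.96, 7.27, 7.71 and 4.67 CPM in clone 2 and 7.89, 8.02, 7.66 and 6.11 CPM in clone 3, 4.04 ± 0.31 above wild type on the log2 scale (SE). Clone 1 stood above clones 2 and 3 in every library. Zfp36l1 showed the largest difference between clones by p-value. Its PROMPT was at 1.5, 1.63 and 1.57 CPM in wild type and 1.38, 2.73, 1.73 and 1.61 CPM in Btbd7 KO. Clone 1 stood at 20.6, 15.5, 17.2 and 16.3 CPM, clone 2 at 9.14, 9.21, 9.73 and 6.20 CPM and clone 3 at 7.89, 7.77, 10.7 and 7.74 CPM. Every library of clone 1 was above every library of clones 2 and 3, and the test of equality among clones gave an adjusted p of 4.85e-06 (edgeR, 2 degrees of freedom). By contrast the PROMPT of Zfp36l2 stood at 5.25 ± 0.900 CPM in wild type (SD, n = 3) and 7.02 ± 1.97, 6.70 ± 1.29 and 6.79 ± 1.10 CPM in the clones (SD, n = 4), with a log2 fold change of 0.37 ± 0.19 that did not pass (SE, edgeR adjusted p = 0.115). Against Btbd7 KO it was 0.50 ± 0.18 (SE, edgeR adjusted p = 0.0143), and scaling within the PROMPT table turned the value against wild type to -0.03. Annotated genes, Thada among them, overlap the 5 kb upstream of Zfp36l2.

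Differences among the clones were called in 15 of 166 members (all PROMPTs 10.9%). Besides Zfp36l1, the lowest p was that of Zfp407, a large C2H2 protein, whose PROMPT stood at 3.11 ± 0.660 CPM in wild type (SD, n = 3) and 2.47 ± 0.249 CPM in Btbd7 KO (SD, n = 4). It was at 18.8, 20.9, 21.3 and 23.2 CPM in clone 1, 13.3, 10.5, 9.68 and 10.2 CPM in clone 2 and 17.4, 15.8, 18.8 and 15.0 CPM in clone 3. Clone 2 was thus below the other clones in every library and still above all controls (edgeR adjusted p = 1.08e-05 for a difference among clones). The Zfp407 gene was also lowest in clone 2, at 41.1 ± 3.64 CPM against 60.9 ± 2.16 and 61.0 ± 2.14 CPM in clones 1 and 3 (SD, n = 4).

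The PROMPT called lower was that of Zfp513. It was at 88.7, 72.9 and 74.4 CPM in wild type and 80.3, 82.9, 78.3 and 80.3 CPM in Btbd7 KO, and at 59.5 to 72.7 CPM in the 12 clone libraries. Its value of -0.21 ± 0.08 on the log2 scale (SE, edgeR adjusted p = 0.0215) was small, and without wild-type replicate 2 it was -0.12 with an adjusted p of 0.319. All clone libraries lay below all controls. The Zfp513 gene stood at 15.0 ± 1.36 CPM in wild type (SD, n = 4), and below its own PROMPT row in every library that held both. Ppm1g lies within the 5 kb upstream of Zfp513, and how far a PROMPT region reaches or how reads of overlapping transcripts were counted is not given in the sources used here.

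Members were also split by what lies upstream. Of the 111 members with no other annotated gene in the 5 kb upstream, 63 had a tested PROMPT and 56 of these were higher, with a median log2 fold change of 2.53. Of the 120 members with such a neighbour, 103 were tested, 66 were higher and 1 was lower, with a median of 1.42. Restricted to PROMPTs that passed on control libraries alone, 19 of 21 without a neighbour were higher, with a median of 2.17, against 30 of 58 with a neighbour, with a median of 0.54. Where another gene started within 1 kb in the opposite direction, 23 of 42 tested members were higher, with a median of 1.12, against 99 of 124 without such a start, with a median of 2.18. The member pairs Zfp758 with Zfp944 and Zfp942 with Zfp943 face each other across 53 and 88 bp, so their PROMPT regions overlap the partner gene. The difference between members with and without a neighbour was not tested, and PROMPT counts beside a neighbour may include its reads. No shares of other genes split in this way are given, so the split cannot be read as particular to the members.

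**Figure D3:**
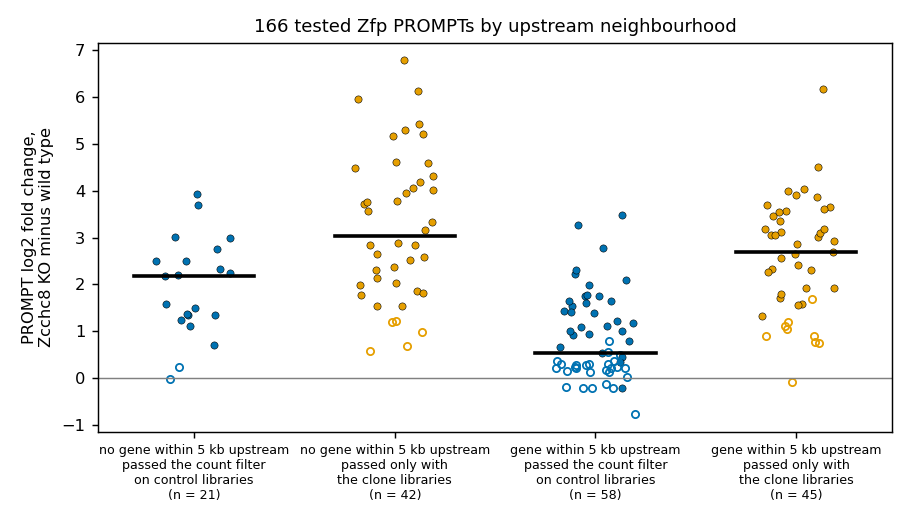
PROMPT log2 fold change, Zcchc8 KO minus wild type, of the 166 tested Zfp members, split by whether another annotated gene lies within 5 kb upstream and by whether the row passed the filter on control libraries alone (blue) or only with the clone libraries (orange). Filled points are past an adjusted p of 0.05, horizontal bars are medians, at 2.17, 3.03, 0.54 and 2.696 from left to right.

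By protein class, the PROMPT was higher in 57 of 82 tested KRAB members (median log2 fold change 1.65). It was higher in 43 of 58 members with 3 or more matched C2H2 fingers and no KRAB match (1.92). In members with fewer matched fingers it was higher in 20 of 23 (2.53), a class that may hold proteins whose fingers the pattern missed. Among rows passing on control libraries alone the counts were 19 of 35, 19 of 30 and 10 of 12. The classes differ in gene level, with median wild-type counts of 287.8, 515.0 and 904.8, and their difference was not tested. No share of other genes passing on control libraries alone is given beside these counts.

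At the gene level the tests were made against Btbd7 KO, because wild-type gene counts had chosen the members. Relative to Btbd7 KO, 47 of the 231 Zfp genes were higher and 35 lower in the mean of the clones (edgeR, adjusted over 15297 genes), while 18.8% of all genes were higher and 22.2% lower. Scaling with DESeq2 size factors gave 55 higher and 26 lower, and no TMM 64 and 20. Over all genes these scalings gave 3215 higher and 2852 lower, and 3563 and 2476, against 2881 and 3401 with TMM. The shift toward higher genes was thus not particular to the members. Changes were small, with a median log2 fold change of 0.04, and 1 gene, Zfp365, passed the test with a change larger than 1 on the log2 scale. Of 9054 other protein-coding genes at the same count threshold, 14.1% were higher and 33.2% lower, with a median of -0.09, against 20.3% and 15.2% of the members. The lower share of members among falling genes was present in each range of wild-type counts. It was 8.33% of members against 18.7% of other genes at 100 to 200 counts, 8.70% against 24.7% at 200 to 400, 21.3% against 30.5% at 400 to 800 and 22.4% against 40.5% from 800 counts. This difference was not tested. Other zinc finger families also had smaller shares of lower genes than the 33.2%, with 3 of 32 Zbtb genes (9.38%), 3 of 17 Klf and Sp genes (17.6%) and 3 of 12 Zscan and Zkscan genes (25%). KRAB members had 26 higher and 11 lower of 116, and C2H2 members without KRAB 15 and 17 of 85. Against wild type, given only as a description, 27 members were past the same threshold upward and 38 downward in the clones (all genes 16.2% and 19.9%), and 11 and 13 in Btbd7 KO (7.73% and 8%).

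Each clone against Btbd7 KO gave 40 higher and 38 lower (clone 1; all genes 19.1% and 20.9%), 36 and 30 (clone 2; 17.4% and 17.9%) and 38 and 23 (clone 3; 15.8% and 16.7%). The mean and every clone shared 13 higher and 6 lower genes of 231 (all genes 9.3% and 8.43%). In 7 members (3.03%) all 12 clone libraries were above all 8 control libraries, and in 1 (0.433%) they were below. The shares were 4.62% and 2.39% of all genes tested, and 1.05% and 3.91% of other protein-coding genes at the same threshold. These counts include the wild-type libraries that chose the members, so they are a description only. The 7 were Zfp113, Zfp324, Zfp386, Zfp626, Zfp703, Zfp719 and Zfp994, and the 1 was Zfp930, of which Zfp113, Zfp386, Zfp703, Zfp719 and Zfp930 were named after their values were seen.

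Zfp994 had the largest rise among genes called in each clone. It was at 16.97, 15.7, 18.99 and 21.6 CPM in wild type and 15.97, 17.2, 21.1 and 15.4 CPM in Btbd7 KO. The clones stood at 28.6, 23.0, 27.8 and 31.8 CPM (clone 1), 26.7, 35.1, 28.0 and 30.7 CPM (clone 2) and 29.6, 30.5, 36.1 and 31.6 CPM (clone 3), a log2 fold change against Btbd7 KO of 0.79 ± 0.11 (SE, edgeR adjusted p = 1.78e-06). Its PROMPT did not pass the test, at 0.69 ± 0.86 on the log2 scale against wild type (SE, edgeR adjusted p = 0.561). Zfp626 rose by 0.67 ± 0.11 (SE, edgeR adjusted p = 3.25e-05), from 18.5 ± 2.59 CPM in Btbd7 KO (SD, n = 4) to 24.1 to 34.5 CPM in the 12 clone libraries. Zfp324 rose by 0.61 ± 0.09 (SE, edgeR adjusted p = 2.27e-06), from 20.9 ± 1.77 CPM to clone means of 31.6 ± 3.14, 30.3 ± 2.25 and 34.0 ± 2.00 CPM (SD, n = 4 each). Wild type stood with Btbd7 KO in both, at 17.2 ± 3.42 and 21.7 ± 2.22 CPM.

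Zfp703, a transcriptional corepressor of the NET family, was at 31.9, 36.2, 31.9 and 31.3 CPM in wild type and 28.8, 35.0, 36.9 and 33.3 CPM in Btbd7 KO. It was at 72.5, 58.2, 53.7 and 49.4 CPM in clone 1, 47.6, 47.5, 51.4 and 50.4 CPM in clone 2 and 43.3, 48.2, 41.2 and 43.4 CPM in clone 3. Its PROMPT was higher too, at 8.34 ± 1.68, 6.34 ± 0.654 and 4.49 ± 1.14 CPM in the clones against 0.908 ± 0.215 CPM in wild type. Zfp930 moved the other way at the gene, from 38.8 ± 0.942 CPM in Btbd7 KO and 39.7 ± 1.57 CPM in wild type to 30.4 ± 2.44, 31.7 ± 2.703 and 34.4 ± 1.70 CPM (SD, n = 4 each), while its PROMPT went from 2, 0 and 0 counts in wild type to 11 to 34 counts in every clone library.

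For Zfp185 and Zfp119a, which also rose against Btbd7 KO, the clones were not above all wild-type libraries. Zfp185, an actin-associated LIM domain protein despite its name, was at 37.7, 36.0, 36.7 and 36.2 CPM in Btbd7 KO and 50.8, 66.4, 73.9 and 79.3 CPM in wild type. The clone means were 51.9 ± 3.04, 54.0 ± 1.82 and 70.3 ± 4.37 CPM (SD, n = 4), so the clones were above Btbd7 KO, by 0.66 ± 0.08 on the log2 scale (SE, edgeR adjusted p = 3.98e-07), and within the range of wild type or just under it. Zfp119a rose by 0.70 ± 0.17 (SE, edgeR adjusted p = 0.00174), to 11.6 to 15.7 CPM in the clones, and 3 of the 4 wild-type libraries were in or near that range at 11.3 to 14.0 CPM.

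**Figure D4:**
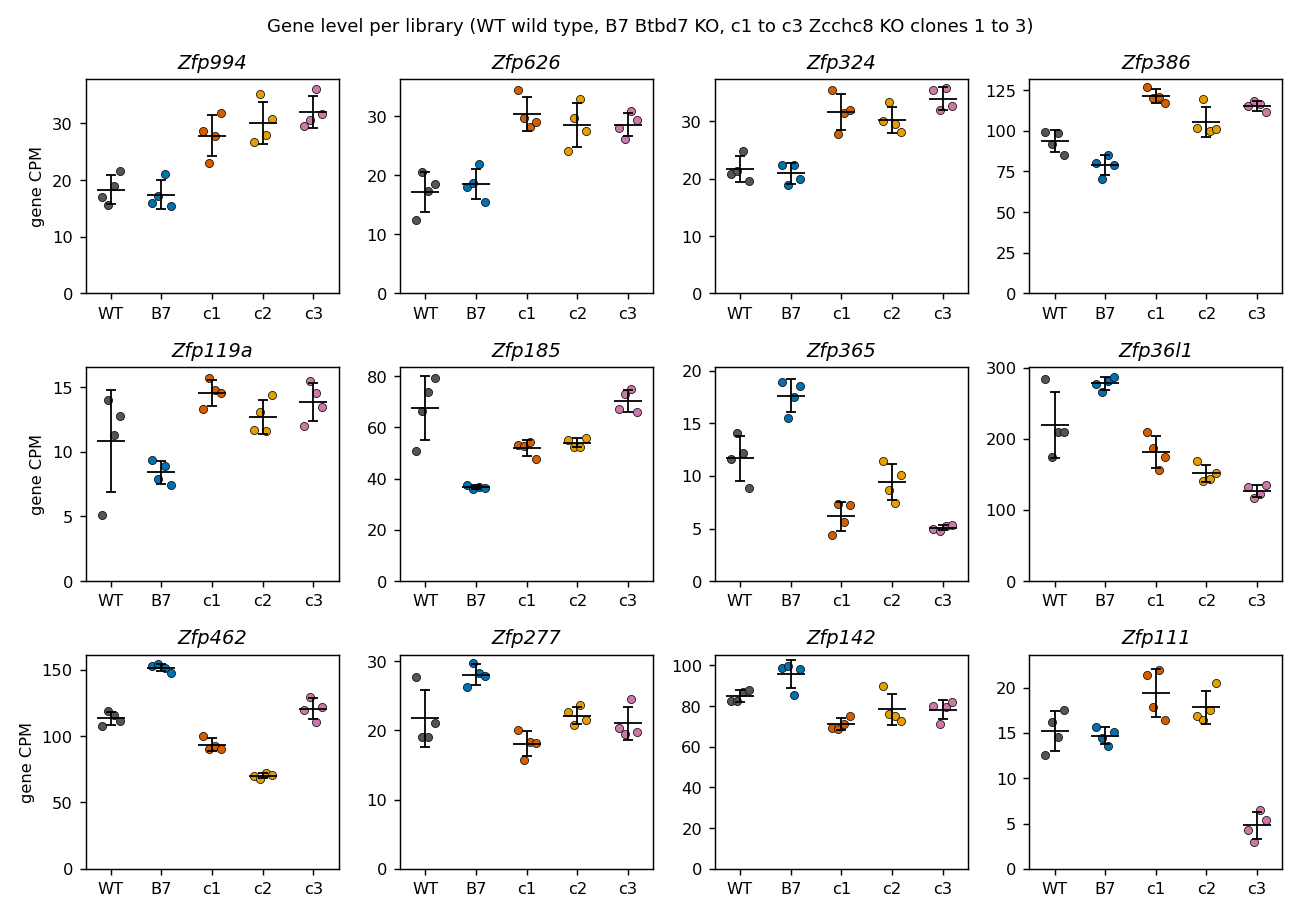
Gene level in CPM (each vertical axis from 0) of 12 Zfp genes in every library of wild type, Btbd7 KO and Zcchc8 KO clones 1 to 3 (n = 4 each); points are libraries, bars the mean and SD. Zfp994, Zfp626, Zfp324 and Zfp386 are above both controls in every clone library, Zfp185 is low in Btbd7 KO itself, and Zfp111 is low in clone 3.

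Among genes that fell, Zfp365, known for a role in genome stability, changed most. It was at 18.9, 15.5, 17.5 and 18.6 CPM in Btbd7 KO and 11.6, 14.1, 12.2 and 8.86 CPM in wild type. The clones stood at 4.43, 7.31, 5.65 and 7.26 CPM (clone 1), 11.4, 8.69, 7.47 and 10.1 CPM (clone 2) and 4.98, 4.77, 5.23 and 5.32 CPM (clone 3). The log2 fold change against Btbd7 KO was -1.41 ± 0.13 (SE, edgeR adjusted p = 4.54e-09), clone 2 overlapped wild type, and its PROMPT held too few counts to be tested. Zfp36l1 fell by 0.87 ± 0.08 on the log2 scale (SE, edgeR adjusted p = 2.86e-09) while its PROMPT was several-fold higher. Its gene stood at 277, 266, 281 and 287 CPM in Btbd7 KO and 284, 175, 210 and 209 CPM in wild type, the highest of which is replicate 1. It was at 209, 187, 156 and 174 CPM in clone 1, 168, 141, 144 and 152 CPM in clone 2 and 132, 116, 123.1 and 135 CPM in clone 3, all below Btbd7 KO. Clone 1, with the highest Zfp36l1 PROMPT, had the highest mean gene level of the clones.

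Zfp462, the member with most matched C2H2 fingers, fell by 0.71 ± 0.05 on the log2 scale (SE, edgeR adjusted p = 5.74e-12) and differed among clones (edgeR adjusted p = 9.53e-10). It was at 153, 154, 151 and 148 CPM in Btbd7 KO and 108, 119, 116 and 111 CPM in wild type. Clone 1 stood at 100.4, 90.6, 92.4 and 90.5 CPM, clone 2 at 69.8, 68.0, 72.6 and 70.7 CPM and clone 3 at 119.8, 129.7, 110.4 and 122.0 CPM. All clones were below Btbd7 KO, and only clones 1 and 2 were below wild type. Zfp277, known as a Polycomb-associated repressor, and Zfp142 fell by 0.46 ± 0.10 and 0.34 ± 0.06 on the log2 scale (SE, edgeR adjusted p = 0.000322 and 3.31e-05). The Btbd7 KO means stood above those of wild type, with overlapping libraries, at 28.1 ± 1.47 against 21.7 ± 4.10 CPM and 95.6 ± 6.87 against 84.9 ± 2.79 CPM (SD, n = 4). The Zfp277 means of clones 1 to 3 were 18.09, 22.13 and 21.03 CPM, and each clone overlapped wild type. Zfp277 was thus lower in the clones than in Btbd7 KO but not set apart from wild type. The Zfp142 means of clones 1 to 3, at 71.08, 78.41 and 78.26 CPM, were also below the wild-type mean. Zfp251 fell by 0.50 ± 0.12 (SE, edgeR adjusted p = 0.00117) from 30.7 ± 3.02 CPM in Btbd7 KO, and wild type at 22.1 ± 5.07 CPM overlapped the clones. Its PROMPT held 0 to 3 counts per control library and 1 to 17 per clone library. That row passed the low-count filter only with the clones, so it is given as values with no test.

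Genes differed among the clones in 68 of 231 members (all genes 28.5%). Zfp111, a KRAB-class gene in the chromosome 7 cluster, was the clearest beside Zfp462. It was at 12.6, 16.3, 14.5 and 17.5 CPM in wild type, 15.7, 14.5, 13.5 and 15.1 CPM in Btbd7 KO, 21.4, 17.9, 22.0 and 16.4 CPM in clone 1 and 16.9, 16.4, 17.5 and 20.5 CPM in clone 2. In clone 3 it was at 4.27, 3.01, 6.50 and 5.38 CPM, below every other library (edgeR adjusted p = 3.05e-09 for a difference among clones). No PROMPT count of Zfp111 was recorded in any library.

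Genes whose PROMPT was higher lay on both sides of 0 at the gene level. Of the 122 members whose PROMPT was higher against wild type, the gene was higher against Btbd7 KO in 24, lower in 20 and in neither list in 78, with a median gene log2 fold change of 0.07. Of the 44 whose PROMPT was tested and not higher, 7 genes were higher and 4 lower, with a median of 0.04. Of the 65 without a tested PROMPT, 16 were higher and 11 lower, with a median of -0.01. Over all genes 18.8% were higher and 22.2% lower, and over other protein-coding genes at the same threshold 14.1% and 33.2%. The comparisons share the clone libraries, and no test was made, so these counts are not read as a relation between PROMPT and gene. For the 3 members with the highest gene level per kilobase of exon in wild type, Zfp207 at 79.3, Zfp36l1 at 73.4 and Zfp36l2 at 70.2 CPM per kb, the gene fell against Btbd7 KO in Zfp207 (by 0.36 ± 0.07 on the log2 scale, SE, edgeR adjusted p = 7.98e-05) and Zfp36l1, and Zfp36l2 stood at 0.03 ± 0.06 (SE, edgeR adjusted p = 0.681). Wild-type replicate 1 held the highest Zfp207 level, 657 CPM against 440 to 528 CPM in the other wild-type libraries.

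**Figure D5:**
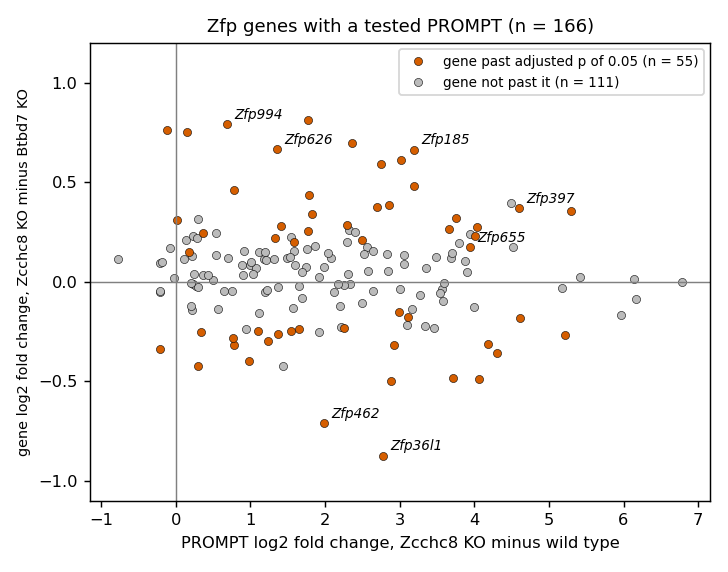
Change at the PROMPT (horizontal axis, log2 fold change of Zcchc8 KO minus wild type) and at the gene (vertical axis, log2 fold change of Zcchc8 KO minus Btbd7 KO) for the 166 Zfp members with a tested PROMPT. Orange points are the 55 genes past an adjusted p of 0.05 and grey points the 111 that are not. Of the PROMPT values 157 are above 0, and gene values lie on both sides of 0 within 1 on the log2 scale.

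The corepressors through which KRAB proteins act were read from a list of 18 genes, all tested. Of these 2 were higher than in Btbd7 KO and 7 lower (all genes 18.8% and 22.2%; other protein-coding genes at the threshold 14.1% and 33.2%), with a median log2 fold change of -0.14. Trim28, the corepressor bound by KRAB domains, was at 321 ± 18.6 to 365 ± 11.3 CPM in the clones, 400 ± 5.70 CPM in Btbd7 KO and 354 ± 9.16 CPM in wild type (SD, n = 4). Against Btbd7 KO it changed by -0.20 ± 0.05 on the log2 scale (SE, edgeR adjusted p = 0.000847). Morc2a, an ATPase of heterochromatin silencing, changed by -0.37 ± 0.06 (SE, edgeR adjusted p = 1.27e-05), and here too the clones, at means of 128 to 141 CPM, stood at the wild-type level of 137 ± 16.4 CPM. Cbx1, an HP1 protein, changed by -0.29 ± 0.05 (SE, edgeR adjusted p = 7.43e-05). The direction turned against wild type, where the clones were higher by 0.18 (edgeR adjusted p = 0.00935). Cbx1 stood at 79.7 ± 4.81 CPM in wild type, 109.9 ± 2.22 in Btbd7 KO and 79.8 ± 5.83, 108.7 ± 4.16 and 84.6 ± 4.82 CPM in clones 1 to 3 (SD, n = 4 each). The histone deacetylase Hdac2 changed by -0.21 ± 0.05 against Btbd7 KO (SE, edgeR adjusted p = 0.00252). Fam208a, a subunit of the HUSH silencing complex, was higher by 0.25 ± 0.07 (SE, edgeR adjusted p = 0.00408). Against wild type Fam208a did not pass, at 0.13 (edgeR adjusted p = 0.125). Mphosph8 and Pphln1, HUSH genes of the same list named here beside the rule, went the other way against Btbd7 KO. They changed by -0.39 ± 0.10 and -0.27 ± 0.07 (SE, edgeR adjusted p = 0.00281 and 0.00319). The DNA methyltransferase Dnmt1 was higher by 0.23 ± 0.07 (SE, edgeR adjusted p = 0.0126). PROMPTs of 12 of the 18 genes were tested against wild type, of which 8 were higher and 1 was lower (all PROMPTs 39.9% and 3.31%; other protein-coding genes 66.4% and 1.57%).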

How the data were processed

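Total RNA of 20 libraries was made with a stranded kit, per the labels' protocols, and STAR 2.7.3a and FastQC are named in the submitters' processing notes. The authors deposited raw counts per gene (20 libraries) and per PROMPT (19 libraries). The counter, its strand setting, the genome build and the PROMPT window are not given in the sources used here, so PROMPT counts may include overlapping transcripts. Identifiers were matched to GENCODE M21, 54573 of 55471 with their version.

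Counts of both tables were scaled by the library's gene total and TMM factors and fitted with edgeR 4.0.16 (quasi-likelihood, filterByExpr, R 4.3.3) over all 5 groups. The p-values were adjusted by the Benjamini-Hochberg method over all 15297 genes or 17655 PROMPTs, with a threshold of 0.05. The Zcchc8 KO value is the mean of the 3 clones. Because wild-type gene counts chose the members, gene tests of members set the clones against Btbd7 KO or each other. Corepressors were not chosen by those counts, and Cbx1 and Fam208a were also tested against wild type. On simulated data, 94% of 2-fold gene changes (13773 genes, Zcchc8 KO minus Btbd7 KO) and 88% of 2-fold PROMPT changes (14295 PROMPTs, Zcchc8 KO minus wild type) were recovered. The simulation gave every feature the same spread, let few features change and made the clones equal. The real rows differ in all of these, so the rates check the code and do not measure recovery in these data.

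The members and lists were chosen with earlier results of these data known. Named were the CCCH members, the 6 largest PROMPT rises with at least 20 counts per library and no gene in the 5 kb upstream, the PROMPT called lower, the 5 largest and 5 lowest gene changes called in each clone, and the 3 genes highest per kilobase. Also named were the 2 genes and 2 PROMPTs with the lowest p among clones, the 3 lowest genes among members whose PROMPT rose, the members at the threshold, and up to 4 called corepressors per direction. DESeq2 1.42.0, other scalings, filters, group sets and leaving out each library were tried as alternatives. The number of libraries limits the precision.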

Additional observations from a re-analysis of the deposited data

Results flagged for a closer look

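Among 205 groups of 4 libraries, 12 held a library far from the other 3, and chance gives about 1 in 20. At the gene level these were Cbx1 at 106.6 CPM, Zfp142 at 85.4 CPM and Zfp207 at 545.2 CPM in Btbd7 KO, and the summed level of the 231 members at 11085.7 CPM in Btbd7 KO. Zfp703 stood at 36.2 CPM in wild type, Zfp386 at 119.5 CPM in clone 2, and Zfp277 at 24.6 CPM and Zfp930 at 31.9 CPM in clone 3. Among PROMPTs, Zfp36l1 stood at 6.20 CPM in clone 2 and 10.7 CPM in clone 3, Zfp36l2 at 5.16 CPM in clone 3 and Zfp655 at 20.5 CPM in clone 1.

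Among the genes and PROMPTs named by the rules, 19 differed among the 3 clones by edgeR's test of equality, with p adjusted over all features. For genes the adjusted p was 3.81e-12 in Zcchc8, 9.53e-10 in Zfp462, 3.05e-09 in Zfp111, 1.56e-06 in Zfp407, 9.92e-06 in Cbx1, 0.00139 in Zfp365, 0.00142 in Zfp185, 0.00146 in Zfp36l1 and in Zfp598, 0.00754 in Zfp397, 0.00803 in Hdac2, 0.00851 in Zfp703, 0.0213 in Zfp251, 0.0224 in Trim28 and 0.0336 in Zfp207. For PROMPTs it was 4.85e-06 in Zfp36l1, 1.08e-05 in Zfp407, 0.0221 in Zfp36 and 0.0278 in Zfp703.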

How the results depend on the processing

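Leaving out 1 library at a time gave 114 to 122 higher and 1 to 1 lower member PROMPTs against wild type, and 108 to 122 higher and 1 to 2 lower against Btbd7 KO (1 lower without Btbd7 KO replicate 1). Clones 1 to 3 alone gave 109 to 117, 100 to 111 and 103 to 116 higher, Btbd7 KO against wild type 3 to 5 called, and the clone difference 10 to 23, with 23 without wild-type replicate 4. Gene counts ran from 36 to 58 higher and 24 to 39 lower, 60 to 98, 53 to 84 and 51 to 83 called in clones 1 to 3, and 58 to 91 among clones. Corepressors gave 1 to 3 higher (1 without Btbd7 KO replicate 4) and 7 to 9 lower, and the ratio of clones minus wild type 1.86 to 1.96. Lower PROMPTs against wild type numbered 0 with cell lines as replicates, 0 without TMM, 0 without a filter and 9 with scaling within the PROMPT table, which moved the median of all PROMPTs from 0.45 to 0.02 and gave 104 higher, and 10 lower against Btbd7 KO. Without TMM 20 member genes were lower and 4 corepressors higher, while over all genes 3563 were higher and 2476 lower. Fitting only the compared groups gave 98 called genes in clone 3 (61 with all groups), 2 PROMPTs in Btbd7 KO against wild type (4) and 27 among clones (15), where DESeq2 gave 26, and scaling within the PROMPT table gave 8. The ratio difference of 1.91 was 1.05 over members with 10 PROMPT counts in every wild-type library and 1.09 over members passing on controls, a choice made after seeing the data. Zfp36l2 turned to -0.0326 at the PROMPT within the table and to between -0.0061 and 0.0679 at the gene when single libraries were left out, the lowest without Btbd7 KO replicate 2. The causes were not tested. Replicate numbers did not pair the libraries (40 pairs, r from -0.098 to 0.136, 2 of 20 libraries closest to their own number), and a replicate block gave 119 higher and 1 lower PROMPTs and 47 higher and 34 lower genes. PROMPTs with few control counts leave the size of a fold loosely fixed.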
